A study of Mus musculus with 12 samples.

Results

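Cell cycle and proliferation genes were followed in mouse liver as a set of 45 genes of DNA replication, mitosis and the centromere, listed by gene symbol. Of these, 44 were measured, out of 12393 genes in all, and Ccnb1 had no probe set annotated to it alone or with others. A probe set is a group of short oligonucleotides on the array that reads one transcript. The 44 genes had 83 probe sets with a single gene symbol, 24 genes had more than 1, and for each gene the probe set that averaged highest across the 12 arrays was used. Whole-liver RNA of C57BL/6 females, 8 to 12 weeks old, was read on Affymetrix Mouse430A arrays, with 3 arrays for each of 4 groups. The groups were HDAC6 knockouts and HDAC9 knockouts, each without one histone deacetylase, an enzyme that takes acetyl groups off proteins, and 2 wild-type groups: mice on a high-fat diet begun after weaning, with 60% of energy from fat, and mice on chow with 25% of energy from fat. No driver of a tissue-specific deletion is named, and no diet is stated for the knockout mice, so each knockout comparison with wild types could include a dietary difference. The replicates are numbered without a statement that each was a separate mouse, so p-values reflect the scatter of these samples, which may be technical.

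A cell that divides copies its DNA in S phase, with the MCM helicase, the sliding clamp PCNA and enzymes that make deoxynucleotides, and then separates the copies in mitosis, with the centromere, the kinetochore, mitotic kinases and spindle motors. Cyclins bound to cyclin-dependent kinases drive each step, and most of these genes are transcribed only in cycling cells, under E2F factors in S phase and under the DREAM and B-MYB-FOXM1 complexes later. In the adult liver nearly all hepatocytes are at rest, so in whole-liver RNA these transcripts come from few cells, and the young liver still holds some hepatocytes that divide or become polyploid. In whole tissue, fewer cycling cells and less RNA per cycling cell cannot be told apart.

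Levels are given on the log2 scale, on which a difference of 1 is a 2-fold change, and the level of one gene is not compared with that of another. Of the 44 genes, 28 had a mean over the 12 arrays at or under 5.46, the 90th percentile of 25 measured genes not known to be expressed in liver, and these 28 are called near background. The other 16 lay above it. A group difference was called where limma gave an adjusted p under 0.05 (Benjamini-Hochberg over the 12393 genes), and groups were said not to overlap where every array of one was higher than every array of the other. The array medians lay between 5.78 and 5.86, and the correlation between arrays over probe sets was 0.987 to 0.998. The median standard error (SE) of a group difference was 0.124, and with 3 arrays against 3 an exact permutation test cannot go below p = 0.1. As a check of the labels, Hdac6 was lower in the HDAC6 knockout than in chow by a log2 fold change of -1.63 (SE 0.133, limma adjusted p = 6.79e-05), whereas Hdac9 averaged 4.30 in chow livers, near background, and could not serve as a check. HDAC9 knockout replicate 2 also carried pancreas transcripts, with a median of 3.69 above the 12-array mean over the 12 measured of 17 exocrine pancreas markers, and the results of this group are also given without it. Replicate 1 carried less of them, at 0.22, and the other 10 arrays ran from -0.63 to -0.19. Albumin read 14.2 on all 12 arrays, and the medians of 9 hepatocyte markers stayed within -0.066 and 0.038 of their 12-array means.

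Most of the cell cycle genes averaged lower in both knockout groups than in chow livers, the centromere gene Cenpk fell in the HDAC9 knockout, and no gene of the set passed the test for the high-fat diet against chow. In the HDAC9 knockout 38 of 44 genes had a lower mean than in chow, against 54% of all genes, and the median log2 fold change of the set was -0.30, against -0.014 over all genes. Only Cenpk was called (1 of 44 genes, with 0.0968% of all genes called in this comparison), while 21 genes were lower at an unadjusted p under 0.05, against 3.6% of all genes, and 0 were higher, against 2.49%. For 16 genes, all lower in the HDAC9 knockout, its arrays did not overlap with those of chow, against 7.21% of all genes. Among the 16 genes above background, 13 had a lower mean, 11 were lower at an unadjusted p under 0.05, and the median was -0.42.

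In the HDAC6 knockout 38 of 44 genes also had a lower mean than in chow, against 54.4% of all genes, with a median log2 fold change of -0.22, against -0.014. None of the 44 was called by limma, where 0.0161% of all genes were called. At an unadjusted p under 0.05, 12 genes were lower and 0 higher, against 3.03% and 2.74% of all genes. The groups did not overlap for 10 genes, all lower in the knockout, against 5.31% of all genes. The 3 chow comparisons share the chow arrays, so they are not independent of one another, and their values are set side by side without a test of likeness.

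On the high-fat diet 28 of 44 genes had a lower mean than on chow, against 52.8% of all genes, and the median was -0.076, against -0.0101. None was called by limma, where 0.29% of all genes were called. Ribonucleotide reductase Rrm2 and the cytokinesis factor Ect2 were lower at an unadjusted p under 0.05, against 4.35% of all genes, and cyclin E2 (Ccne2), Mcm5 and cyclin D1 (Ccnd1) were higher, against 4.13%. The arrays did not overlap for 2 genes that were lower and 2 that were higher, against 7.71% and 7.02% of all genes.

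**Figure D1:**
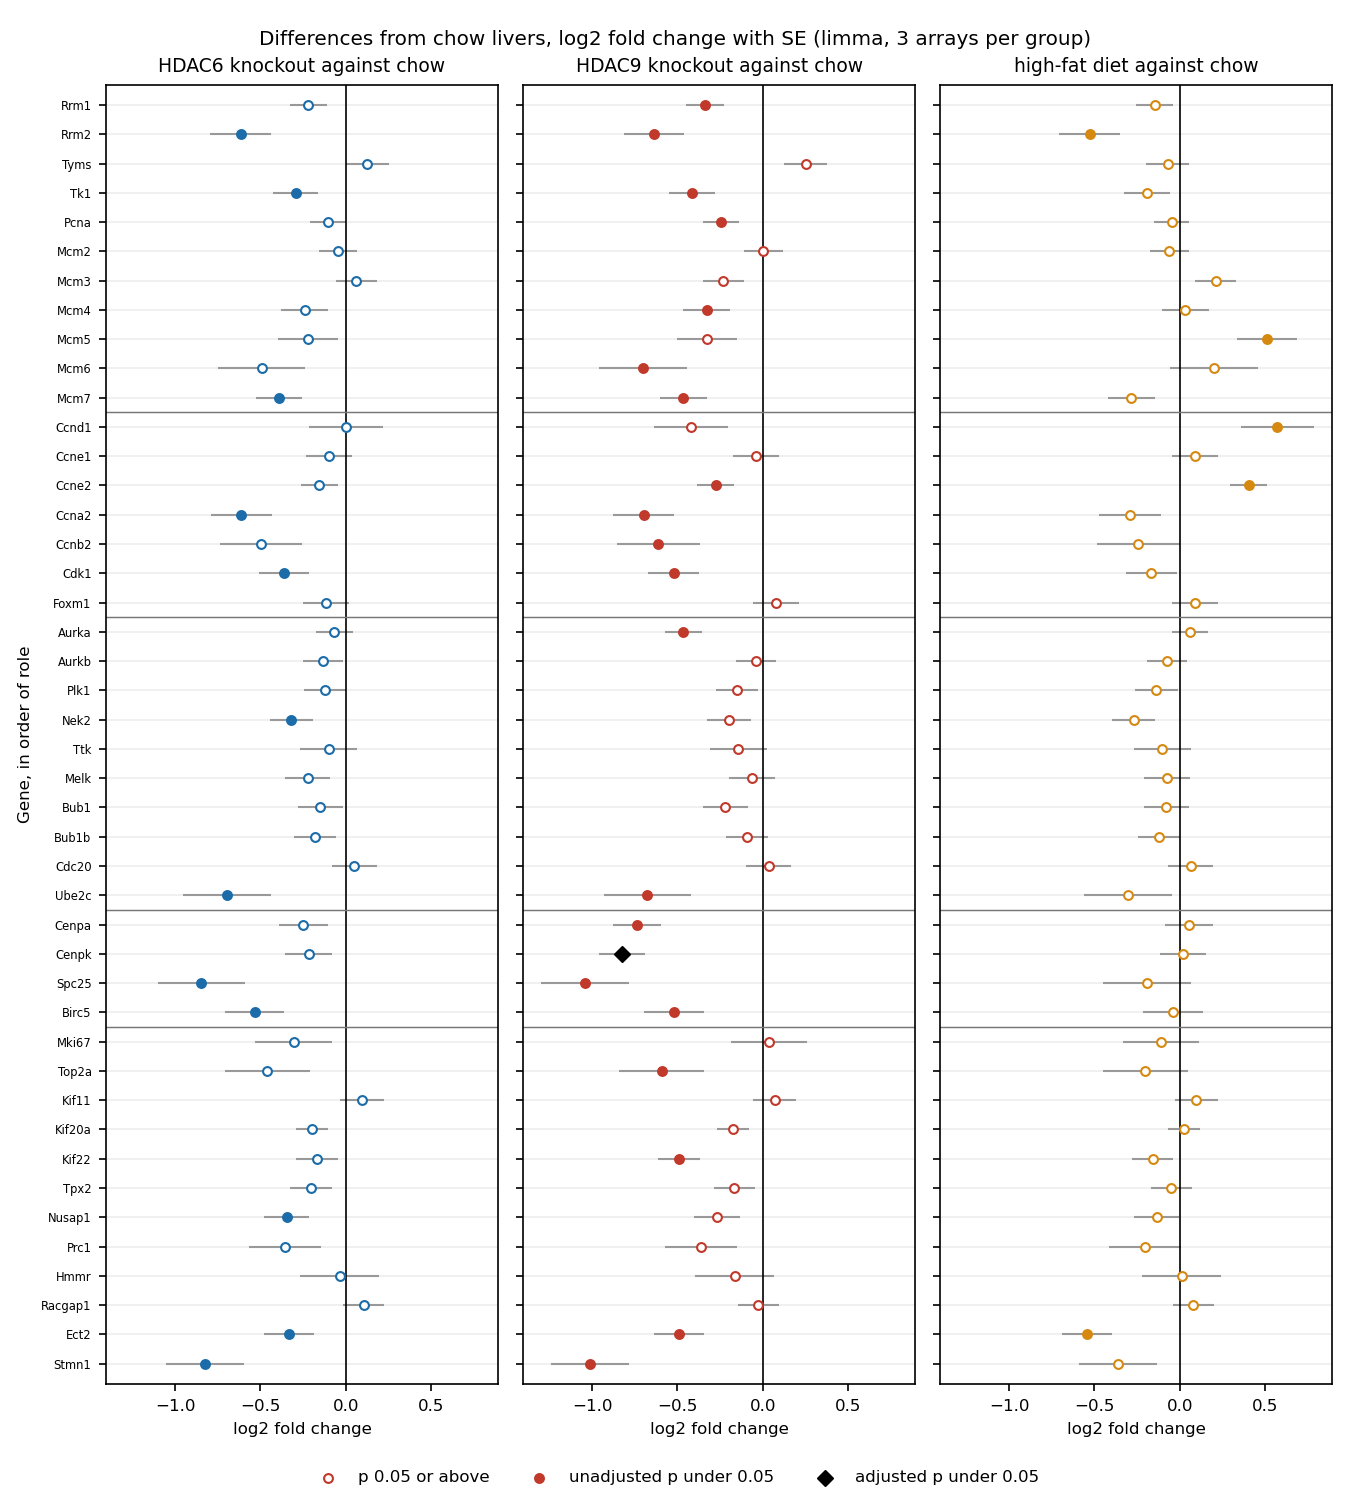
Log2 fold change (horizontal axis) of each of the 44 measured cell cycle genes, by role, in the HDAC6 knockout, the HDAC9 knockout and the high-fat group, each against chow. Points are the limma estimates and bars their standard errors (SE); 38, 38 and 28 of the 44 points lie left of 0, and Cenpk in the HDAC9 knockout is the called gene.

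The centromere and kinetochore genes had the lowest median of the roles in both knockouts. In the HDAC9 knockout all 4 averaged lower than in chow, against 54% of all genes, with a median log2 fold change of -0.78. All 4 were lower there at an unadjusted p under 0.05, against 3.6% of all genes. Against chow the median of these 4 was -0.39 in the HDAC6 knockout and -0.0105 on the high-fat diet.

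Cenpk encodes a subunit of the inner kinetochore complex that sits on centromeric chromatin. Cenpk read 4.10, 4.13 and 3.96 on the HDAC9 knockout arrays, 4.91, 4.60 and 4.50 on the HDAC6 knockout arrays, 5.08, 4.76 and 4.88 on the high-fat arrays and 4.92, 5.06 and 4.69 in chow livers. All 3 HDAC9 knockout values lay below the 9 others, and the other 3 groups overlapped one another. Cenpk thus fell in the HDAC9 knockout against chow, from 4.89 ± 0.186 to 4.07 ± 0.0899 (SD, n = 3 each), by 0.82 on the log2 scale (SE 0.135, 1.77-fold, limma adjusted p = 0.0454). Both means lay near background. This call was close to the threshold: over 24 alternatives the log2 fold change ran from -0.92 to -0.74 and the adjusted p from 0.0238 to 0.189, and the call was lost in 14. Of the single arrays, it was lost without HDAC6 knockout replicate 2 (0.0756), HDAC9 knockout replicates 1, 2 or 3 (0.0657, 0.0944 and 0.189), high-fat replicates 1, 2 or 3 (0.0729, 0.0621 and 0.0686) and chow replicates 1 or 2 (0.166 and 0.151).

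Cenpa encodes the histone H3 variant that marks the centromere. On the chow arrays Cenpa read 5.90, 6.18 and 6.05, on the high-fat arrays 6.05, 6.27 and 5.98, on the HDAC6 knockout arrays 5.93, 5.70 and 5.76 and on the HDAC9 knockout arrays 5.32, 5.58 and 5.03. The HDAC9 knockout arrays held the 3 lowest values, and the high-fat and chow arrays overlapped. Against chow, Cenpa differed by -0.74 in the HDAC9 knockout (SE 0.142, limma adjusted p = 0.0863), by -0.25 in the HDAC6 knockout and by 0.0545 on the high-fat diet, and none of these was called. Cenpa lay above background, at 6.05 ± 0.141 in chow livers (SD, n = 3).

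Spc25 encodes a subunit of the NDC80 complex, which binds kinetochores to microtubules. The Spc25 values were 6.92, 7.49 and 6.39 in chow livers, 6.72, 7.002 and 6.50 in high-fat livers, 6.67, 5.77 and 5.82 in HDAC6 knockout livers and 5.92, 5.91 and 5.83 in HDAC9 knockout livers. The 3 HDAC9 knockout values lay below all chow and high-fat values, whereas HDAC6 knockout replicate 1 lay among the wild types. The log2 fold change against chow was -1.04 in the HDAC9 knockout (SE 0.257, limma adjusted p = 0.311) and -0.845 in the HDAC6 knockout (adjusted p = 0.722). A dimmer second probe set of Spc25 gave -0.056 and -0.087, so the size of this difference depends on the probe set.

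Birc5 encodes survivin, which belongs to the chromosomal passenger complex at the inner centromere. Birc5 read 3.33, 3.63 and 3.06 on the HDAC9 knockout arrays, 3.49, 3.20 and 3.27 on the HDAC6 knockout arrays, 3.91, 3.92 and 3.62 on the high-fat arrays and 3.80, 4.24 and 3.53 in chow livers. It lay near background throughout, and the HDAC6 knockout values all lay below the chow values, while those of the HDAC9 knockout overlapped with chow. The log2 fold changes were -0.53 and -0.52 in the HDAC6 and HDAC9 knockouts (limma adjusted p = 0.727 and 0.634).

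**Figure D2:**
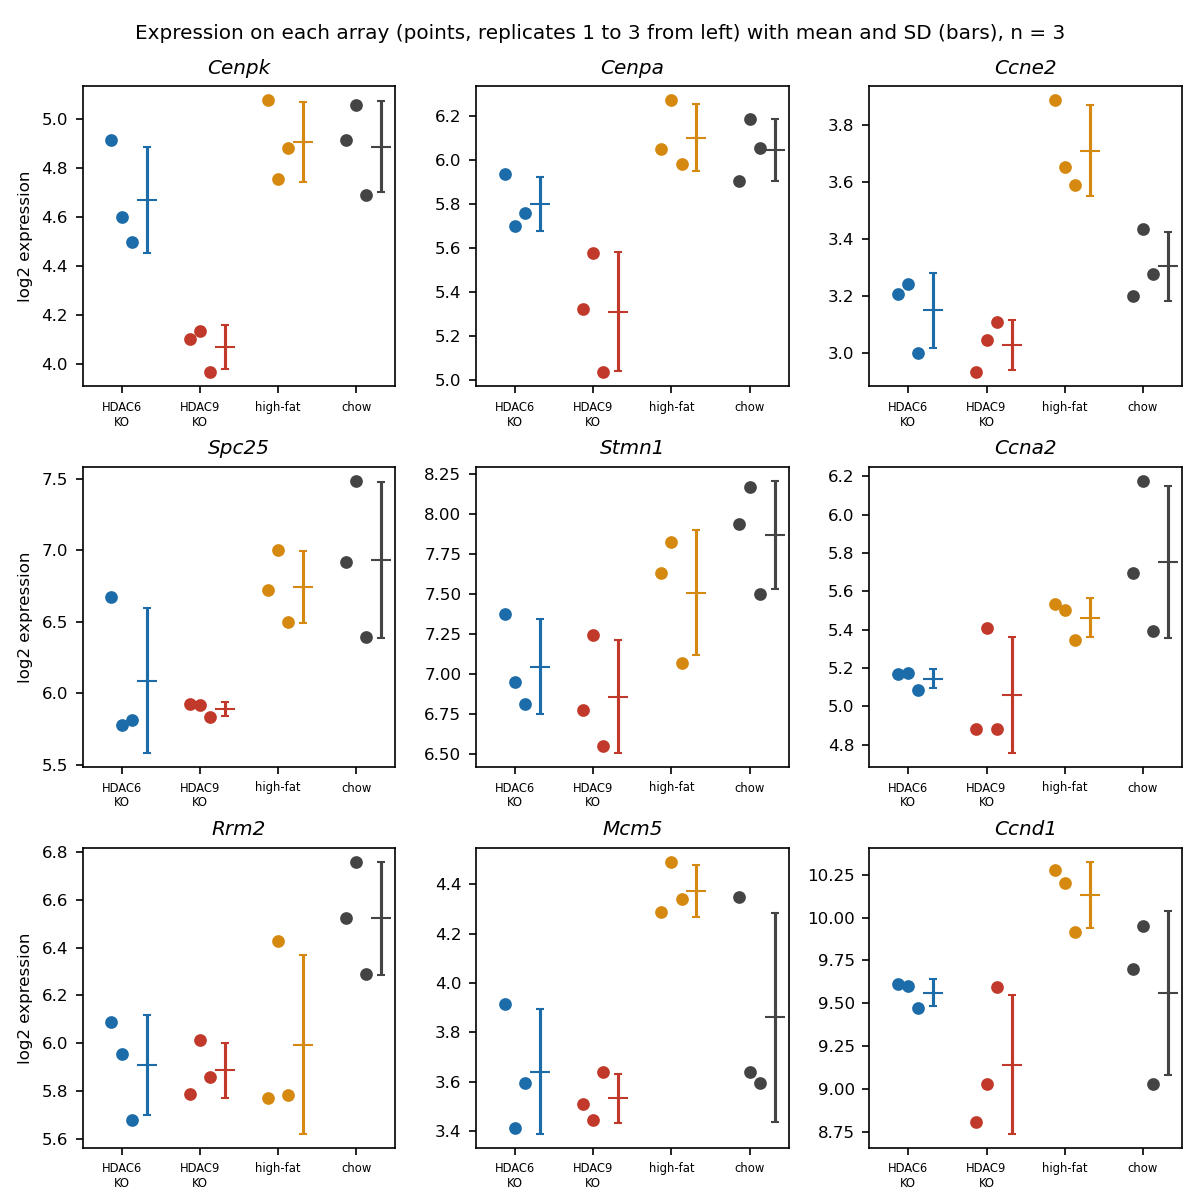
Log2 expression (vertical axis) of single cell cycle genes on each of the 12 arrays, by group, with the group mean and SD as bars (n = 3). The 3 HDAC9 knockout points of Cenpk, between 3.96 and 4.13, lie below the 9 others, and the 3 high-fat points of Ccne2, between 3.59 and 3.89, lie above the 9 others.

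Among the 11 genes of DNA replication and nucleotide synthesis, 9 had a lower mean than chow in each knockout, against 54% of all genes in the HDAC9 knockout and 54.4% in the HDAC6 knockout. The medians were -0.33 in the HDAC9 knockout, with 7 genes lower at an unadjusted p under 0.05 (3.6% of all genes), and -0.22 in the HDAC6 knockout, with 3 (3.03% of all genes). On the high-fat diet the median was -0.061. None of the 11 was called against chow.

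Rrm2 encodes the small subunit of ribonucleotide reductase, which makes deoxynucleotides and is present mainly in S phase. Rrm2 read 5.79, 6.01 and 5.86 on the HDAC9 knockout arrays, 6.09, 5.96 and 5.68 on the HDAC6 knockout arrays, 5.77, 6.43 and 5.79 on the high-fat arrays and 6.52, 6.76 and 6.29 in chow livers. All 6 knockout values lay below all 3 chow values, and only high-fat replicate 2 reached into the chow range. The log2 fold changes were -0.64 in the HDAC9 knockout (limma adjusted p = 0.459), -0.61 in the HDAC6 knockout (adjusted p = 0.662) and -0.53 on the high-fat diet (adjusted p = 0.364). All 3 probe sets of Rrm2 averaged lower than chow in all 3 groups.

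Rrm1 encodes the large subunit of the same enzyme. On the chow arrays Rrm1 read 6.74, 6.92 and 6.77, on the high-fat arrays 6.52, 6.82 and 6.65, on the HDAC6 knockout arrays 6.62, 6.57 and 6.59 and on the HDAC9 knockout arrays 6.61, 6.41 and 6.40. The HDAC9 knockout values lay below all chow values, with a log2 fold change of -0.34 (limma adjusted p = 0.617), but the dimmer second probe set gave 0.35, in the opposite direction. Tk1 encodes thymidine kinase, which salvages thymidine for DNA synthesis. The Tk1 values were 8.37, 7.95 and 8.02 in chow livers, 8.04, 7.86 and 7.86 in high-fat livers, 7.69, 7.74 and 8.03 in HDAC6 knockout livers and 7.85, 7.55 and 7.69 in HDAC9 knockout livers. All HDAC9 knockout values lay below all chow values (-0.42, adjusted p = 0.612), and high-fat and chow values overlapped. Tyms, the thymidylate synthase gene, read 2.85 to 3.49 on the probe set specific to it, near background, and 6.34 to 6.68 on a probe set shared with a Tyms pseudogene, so its level was not settled.

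Pcna encodes the sliding clamp of the replication fork and was well above background. Pcna read 9.31, 9.57 and 9.31 on the HDAC9 knockout arrays, 9.52, 9.62 and 9.49 on the HDAC6 knockout arrays, 9.73, 9.56 and 9.50 on the high-fat arrays and 9.57, 9.79 and 9.57 in chow livers. The HDAC9 knockout values lay just below the chow values, with a log2 fold change of -0.24 (limma adjusted p = 0.783), and the HDAC6 knockout and high-fat values overlapped with chow.

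The MCM genes encode the 6 subunits of the replicative helicase. On the chow arrays Mcm7 read 8.29, 8.40 and 8.09, on the high-fat arrays 7.87, 8.12 and 7.95, on the HDAC6 knockout arrays 8.19, 7.80 and 7.62 and on the HDAC9 knockout arrays 7.77, 7.86 and 7.76. The HDAC9 knockout values of Mcm7 lay below all chow values (-0.47, SE 0.138, limma adjusted p = 0.527), and HDAC6 knockout replicate 1 lay within the chow range (-0.39, adjusted p = 0.759). All 4 probe sets of Mcm7 averaged lower than chow in both knockouts. Mcm6 and Mcm4 differed from chow by -0.70 and -0.33 in the HDAC9 knockout (adjusted p = 0.718 and 0.763).

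Mcm3, Mcm4, Mcm5 and Mcm6 had their highest group mean on the high-fat diet. The Mcm5 values were 4.35, 3.64 and 3.60 in chow livers, 4.29, 4.49 and 4.34 in high-fat livers, 3.91, 3.41 and 3.59 in HDAC6 knockout livers and 3.51, 3.45 and 3.64 in HDAC9 knockout livers. The high-fat values of Mcm5 lay above all knockout values, and chow replicate 1 was level with them. Mcm5 lay near background and differed from chow by 0.51 on the high-fat diet (SE 0.176, limma adjusted p = 0.382). Mcm3 read 5.51, 5.61 and 5.57 on the HDAC9 knockout arrays, 5.98, 5.83 and 5.76 on the HDAC6 knockout arrays, 5.95, 6.11 and 5.95 on the high-fat arrays and 5.93, 5.89 and 5.56 in chow livers. The high-fat values of Mcm3 lay above all chow values (0.21, adjusted p = 0.683). Mcm2 read 6.74, 6.78 and 6.77 on the HDAC9 knockout arrays, 6.61, 6.57 and 6.96 on the HDAC6 knockout arrays, 6.68, 6.65 and 6.76 on the high-fat arrays and 6.79, 6.81 and 6.67 in chow livers. The Mcm2 groups overlapped on this probe set (0.0046 in the HDAC9 knockout), while a dimmer probe set gave -0.35.

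None of the cyclins was called against chow. Cyclins A2 and B2 averaged lower in the knockouts than in chow, and cyclins E2 and D1 averaged highest on the high-fat diet. Cyclin E1 (Ccne1), which acts with CDK2 like cyclin E2, differed from chow by -0.097 in the HDAC6 knockout, -0.041 in the HDAC9 knockout and 0.0895 on the high-fat diet. Of the 7 measured genes of this role, 6 had a lower mean than chow in each knockout and 3 on the high-fat diet (54.4%, 54% and 52.8% of all genes), with medians of -0.42 in the HDAC9 knockout, -0.15 in the HDAC6 knockout and 0.0895 on the high-fat diet.

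Ccna2 encodes cyclin A2, which acts in S phase and G2. The Ccna2 values were 5.69, 6.18 and 5.39 in chow livers, 5.54, 5.50 and 5.35 in high-fat livers, 5.17, 5.17 and 5.09 in HDAC6 knockout livers and 4.88, 5.41 and 4.88 in HDAC9 knockout livers. All HDAC6 knockout values lay below all chow values, and HDAC9 knockout replicate 2 just reached the lowest chow value. The log2 fold changes were -0.70 in the HDAC9 knockout (SE 0.180, limma adjusted p = 0.375) and -0.61 in the HDAC6 knockout (adjusted p = 0.674). Ccna2 averaged 5.35 over the 12 arrays, near background, and its dimmer second probe set gave -0.17 and -0.35. Cdk1, the kinase that cyclins A and B activate for mitosis, differed from chow by -0.52 in the HDAC9 knockout, where no array reached the chow values (adjusted p = 0.48), and by -0.36 in the HDAC6 knockout. Cyclin B2 (Ccnb2) read 5.69 on chow replicate 2, 5.10 on high-fat replicate 2 and 4.32 to 4.64 on the other 10 arrays.

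Ccne2 encodes cyclin E2, which drives entry into S phase with CDK2. Ccne2 read 2.93, 3.05 and 3.11 on the HDAC9 knockout arrays, 3.21, 3.24 and 3.00 on the HDAC6 knockout arrays, 3.89, 3.65 and 3.59 on the high-fat arrays and 3.20, 3.44 and 3.28 in chow livers. The 3 high-fat values were the highest of the 12 and those of the HDAC9 knockout lay below all chow values, all near background. The log2 fold change against chow was 0.41 on the high-fat diet (SE 0.108, limma adjusted p = 0.212), -0.15 in the HDAC6 knockout and -0.28 in the HDAC9 knockout (adjusted p = 0.741). Cyclin E1 (Ccne1) differed from chow by -0.097 to 0.0895 in the 3 groups.

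Ccnd1 encodes cyclin D1, which carries growth signals into G1, is also expressed in resting hepatocytes and lay far above background. On the chow arrays Ccnd1 read 9.70, 9.95 and 9.03, on the high-fat arrays 10.28, 10.20 and 9.91, on the HDAC6 knockout arrays 9.61, 9.60 and 9.47 and on the HDAC9 knockout arrays 8.80, 9.03 and 9.59. The high-fat values lay above all knockout values, and chow replicate 2 reached the high-fat range while chow replicate 3 lay within the range of the HDAC9 knockout. The difference from chow was 0.57 on the high-fat diet (SE 0.216, limma adjusted p = 0.454), 0.0011 in the HDAC6 knockout and -0.42 in the HDAC9 knockout. All 3 probe sets of Ccnd1 averaged higher on the high-fat diet. Foxm1, a transcription factor of mitotic genes, differed from chow by -0.12 to 0.092 in the 3 groups.

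The 10 mitotic kinase, checkpoint and ubiquitin ligase genes were mostly near background (9 of 10), with medians of -0.14 in the HDAC6 knockout, -0.15 in the HDAC9 knockout and -0.089 on the high-fat diet. Aurka encodes Aurora kinase A, which builds the spindle poles. The Aurka values were 3.81, 3.95 and 3.71 in chow livers, 3.72, 4.04 and 3.88 in high-fat livers, 3.77, 3.74 and 3.76 in HDAC6 knockout livers and 3.40, 3.22 and 3.46 in HDAC9 knockout livers. The HDAC9 knockout values lay below the 9 others, and the other 3 groups overlapped. Against chow, Aurka differed by -0.46 in the HDAC9 knockout (SE 0.108, limma adjusted p = 0.23) and by -0.0655 in the HDAC6 knockout.

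Ube2c encodes the ubiquitin-conjugating enzyme of the anaphase-promoting complex. Ube2c read 4.50, 5.14 and 4.07 on the HDAC9 knockout arrays, 4.62, 4.46 and 4.57 on the HDAC6 knockout arrays, 4.97, 5.26 and 4.59 on the high-fat arrays and 5.22, 5.72 and 4.79 in chow livers. The HDAC6 knockout values lay below all chow values (-0.69, limma adjusted p = 0.76), whereas the HDAC9 knockout arrays spread from 4.07 to 5.14 (-0.68, adjusted p = 0.736). Nek2 encodes a centrosome kinase. On the chow arrays Nek2 read 4.52, 4.58 and 4.24, on the high-fat arrays 4.11, 4.20 and 4.21, on the HDAC6 knockout arrays 3.98, 4.14 and 4.26 and on the HDAC9 knockout arrays 4.03, 4.43 and 4.28. High-fat and chow values of Nek2 did not overlap (-0.27, adjusted p = 0.591).

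Cdc20 activates the anaphase-promoting complex, and its probe sets differed. The Cdc20 values were 5.56, 5.37 and 5.58 in chow livers, 5.59, 5.54 and 5.57 in high-fat livers, 5.26, 5.72 and 5.69 in HDAC6 knockout livers and 5.68, 5.49 and 5.45 in HDAC9 knockout livers. The groups overlapped on this probe set, with a log2 fold change of 0.051 in the HDAC6 knockout and 0.0345 in the HDAC9 knockout, while a dimmer probe set with a mean of 3.85 gave -1.004 and -1.09, and the third -0.40 and -0.37. Plk1, Bub1, Bub1b, Ttk, Melk and Aurkb, kinases of mitotic entry and of the spindle checkpoint, were not called and lay near background.

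Of the 12 genes of chromosome structure, spindle and cytokinesis, 10 had a lower mean than chow in each knockout, with medians of -0.25 in the HDAC6 knockout, -0.22 in the HDAC9 knockout and -0.12 on the high-fat diet. Stmn1 encodes stathmin, which destabilises microtubules and is abundant in proliferating cells. Stmn1 read 6.78, 7.24 and 6.55 on the HDAC9 knockout arrays, 7.38, 6.95 and 6.81 on the HDAC6 knockout arrays, 7.63, 7.82 and 7.07 on the high-fat arrays and 7.93, 8.17 and 7.50 in chow livers. All 6 knockout values lay below all chow values, and high-fat and chow values overlapped. The log2 fold change was -1.01 in the HDAC9 knockout (SE 0.228, 2.01-fold, limma adjusted p = 0.229) and -0.82 in the HDAC6 knockout (adjusted p = 0.625). Its dimmer probe set gave -0.49 and -0.42.

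Kif22 encodes a chromosome-binding kinesin. On the chow arrays Kif22 read 7.10, 7.10 and 6.77, on the high-fat arrays 6.85, 6.97 and 6.67, on the HDAC6 knockout arrays 6.90, 6.69 and 6.88 and on the HDAC9 knockout arrays 6.55, 6.52 and 6.43. The HDAC9 knockout values lay below the 9 others (-0.49, SE 0.121, limma adjusted p = 0.311), but the 2 dimmer probe sets gave -0.021 and 0.061. Nusap1 encodes a protein that bundles spindle microtubules. The Nusap1 values were 4.23, 4.36 and 4.37 in chow livers, 4.25, 4.24 and 4.07 in high-fat livers, 3.89, 3.90 and 4.12 in HDAC6 knockout livers and 3.81, 4.37 and 3.98 in HDAC9 knockout livers. The HDAC6 knockout values lay below all chow values (-0.35, adjusted p = 0.776), near background.

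Ect2 encodes the exchange factor that activates RhoA at the cleavage furrow. Ect2 read 2.95, 2.86 and 2.96 on the HDAC9 knockout arrays, 2.82, 3.16 and 3.25 on the HDAC6 knockout arrays, 2.93, 3.10 and 2.56 on the high-fat arrays and 3.38, 3.64 and 3.21 in chow livers. The high-fat and HDAC9 knockout values lay below all chow values, all near background. The log2 fold change was -0.55 on the high-fat diet (SE 0.147, limma adjusted p = 0.219) and -0.49 in the HDAC9 knockout (adjusted p = 0.548). Mki67, the gene of the proliferation marker Ki-67, averaged 4.99 ± 0.327 in chow livers and 5.03 ± 0.501 in HDAC9 knockout livers (SD, n = 3 each), with a log2 fold change of 0.0355 and its highest value, 5.46, on HDAC9 knockout replicate 3. Top2a, the topoisomerase that untangles chromosomes, differed by -0.59 in the HDAC9 knockout (adjusted p = 0.763), and its dimmer second probe set gave -0.079.

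**Figure D3:**
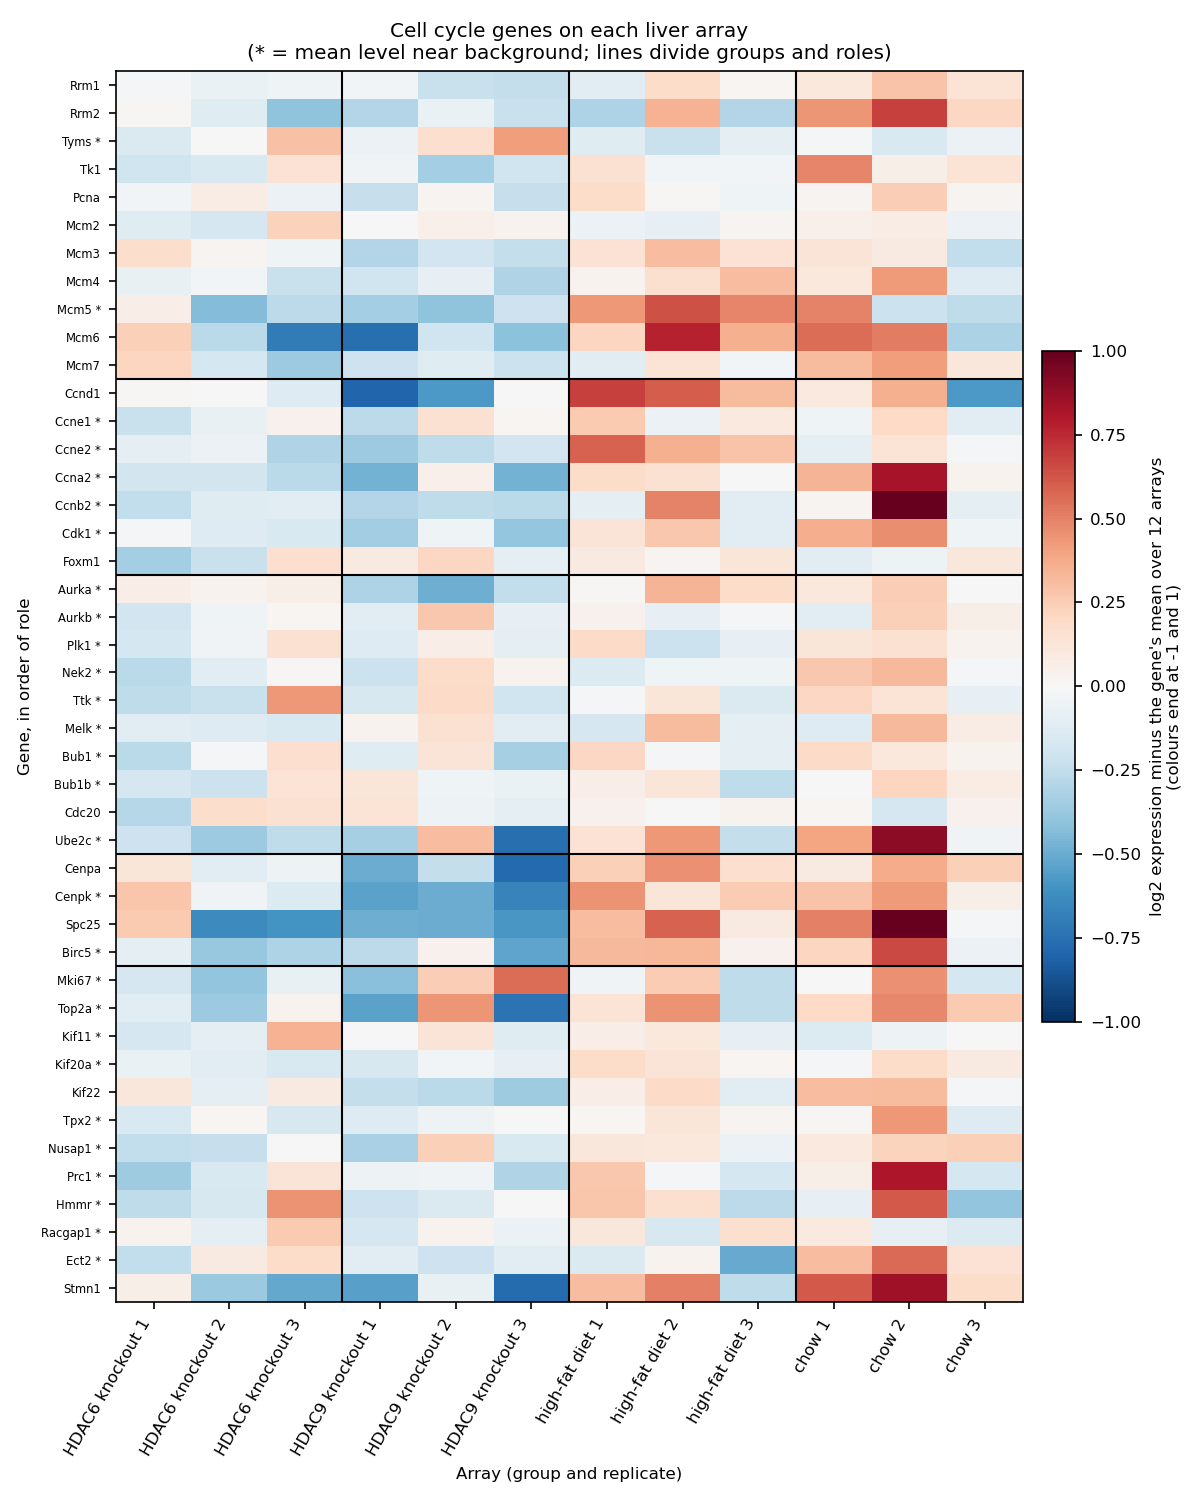
Expression of each of the 44 measured cell cycle genes (rows, by role) on each of the 12 arrays (columns, by group), as the log2 difference from the gene's mean over the 12 arrays. Chow replicate 2 holds the highest value for 22 of the 44 genes, and the 3 HDAC9 knockout arrays hold the lowest value for 25.

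The shift was uneven over arrays. Chow replicate 2 held the highest value of the 12 arrays for 22 of the 44 genes, or 50% (18.49% of all genes), and the HDAC9 knockout arrays held the lowest value for 25, or 56.8% (21.8% of all genes). Each array was summarised by the median over the 44 genes of the difference from the 12-array mean. It was 0.10, 0.32 and -0.0084 on the chow arrays, 0.12, 0.14 and -0.026 on the high-fat arrays, -0.12, -0.12 and -0.044 on the HDAC6 knockout arrays and -0.22, -0.043 and -0.21 on the HDAC9 knockout arrays. Each of the 6 knockout arrays thus lay below each of the 3 chow arrays, chow replicate 3 by the smallest margin.

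Without chow replicate 2, the set had 38, 35 and 20 genes with a lower mean in the HDAC6 knockout, the HDAC9 knockout and the high-fat group, and medians of -0.12, -0.22 and 0.032, the last with its sign turned. The genes lower at an unadjusted p under 0.05 were then 5 in the HDAC6 knockout, 14 in the HDAC9 knockout and 1 on the high-fat diet, against 1.93%, 1.82% and 2.96% of all genes. Without chow replicate 3 they were 18, 26 and 7. With all arrays the shares of all genes were 3.03%, 3.6% and 4.35%, so these shares also move when an array is left out. Counts with an array left out are therefore not set against those of the full fit. The counts of lower means with an array left out stand without the share of all genes under the same removal. So do all counts without chow replicate 3 or without HDAC9 knockout replicate 2. These counts are not read as results about the set. With HDAC9 knockout replicate 2 left out, since it carried pancreas transcripts, this group had 40 genes with a lower mean, 23 of them at an unadjusted p under 0.05, and a median of -0.33. Without replicate 1, which carried less of them, the median was -0.24. Replicate 3, at -0.41 for the pancreas markers, had a median of -0.21 over the 44 genes.

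**Figure D4:**
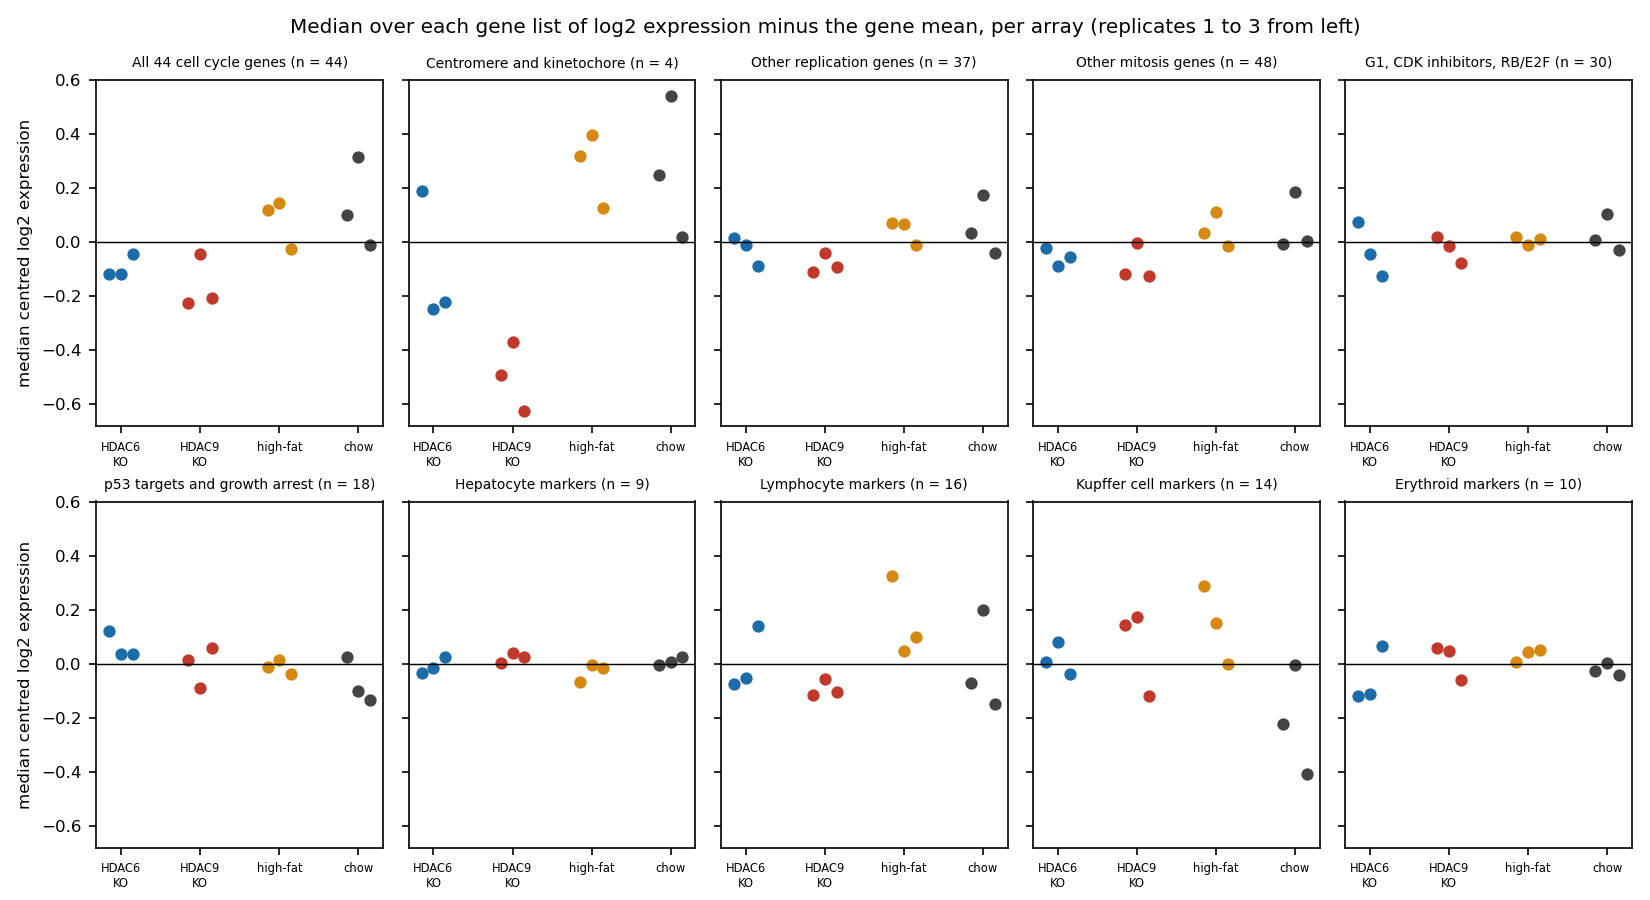
Median over a gene list of the difference from the 12-array mean (vertical axis, log2) on each array, by group, for the 44 cell cycle genes, other cell cycle lists and cell type markers. The cell cycle medians run from -0.22 on HDAC9 knockout replicate 1 to 0.32 on chow replicate 2, and the hepatocyte medians from -0.066 to 0.038.

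Markers of other cells were measured beside this shift. The median over 16 of 20 lymphocyte markers, of which 13 were near background, was 0.20 on chow replicate 2 and 0.32 on high-fat replicate 1, and ran from -0.15 to 0.14 on the other 10 arrays. The median over 14 of 15 Kupffer cell and macrophage markers was -0.22, -0.0053 and -0.41 on the chow arrays. Its group mean was -0.21 in chow and 0.018, 0.066 and 0.15 in the HDAC6 knockout, the HDAC9 knockout and the high-fat group. The knockout arrays overlapped with chow, as replicate 3 of the HDAC6 knockout (-0.036) and of the HDAC9 knockout (-0.12) lay below chow replicate 2. The median over 10 of 15 erythroid markers ran from -0.12 to 0.067. In the HDAC9 knockout all 13 measured of 15 neutrophil markers and all 6 measured of 8 adipocyte markers averaged higher than in chow. Of all genes, 54% averaged lower there. The median log2 fold changes of the 2 lists were 0.20 and 0.29. None of the neutrophil markers was called by limma, 2 were higher at an unadjusted p under 0.05, and 10 of the 13 were near background. Of the adipocyte markers Lpl, the lipoprotein lipase gene, was called (1.23, limma adjusted p = 0.0463), where 0.0968% of all genes were called. The adipokine gene Adipoq read 4.96 on replicate 2 of the HDAC9 knockout and 2.62 to 3.05 on the other 11 arrays. In the HDAC6 knockout the same lists had medians of 0.0085 and -0.030 against chow. For the neutrophil list the group mean of the array medians was -0.11 in chow, 0.093 in the HDAC9 knockout and 0.034 on the high-fat diet. On that diet the adipocyte markers differed from chow by 0.46 (Lpl), 0.30 (Retn), 0.23 (Fabp4), 0.054 (Cidec), 0.034 (Adipoq) and -0.031 (Lep). None of these was called. The part of these cells in the shift of the cell cycle genes was not tested.

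The livers of the high-fat group and of the HDAC9 knockout were also compared directly. Both groups enter the comparisons with chow on the same arrays, so the direct comparison is not independent of those. These groups differ in genotype and may differ in diet, and 3 cell cycle genes were higher in the high-fat group. Ccne2 was higher by a log2 fold change of 0.68 (SE 0.108, 1.6-fold, limma adjusted p = 0.0157), Cenpk by 0.84 (SE 0.135, 1.79-fold, adjusted p = 0.0157) and Cenpa by 0.79 (SE 0.142, 1.73-fold, adjusted p = 0.0295). They were 3 of 44 genes, where 0.266% of all genes were called higher and 0.436% in either direction. For each of the 3 genes all high-fat values lay above all HDAC9 knockout values. Against chow, Cenpk differed by 0.0185 in the high-fat group and by -0.82 in the HDAC9 knockout. Cenpa differed from chow by 0.0545 and -0.74 in these groups, and Ccne2 by 0.41 and -0.28. The set had 36 higher and 8 lower means, where 48.6% of all genes were lower, and a median of 0.19, against 0.0049 over all genes, and 16 genes were higher without overlap, against 7.67%. At an unadjusted p under 0.05, 15 were higher, against 4.46%, and only Tyms was lower, against 3.64%.

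Short of the threshold, Aurka was higher by 0.53 (limma adjusted p = 0.0516), Mcm5 by 0.84 (adjusted p = 0.0587) and Ccnd1 by 0.99 (adjusted p = 0.0696). The call of Ccne2 was lost without high-fat replicate 1 (adjusted p = 0.0654), and that of Cenpk without HDAC9 knockout replicate 3 (0.0762) or high-fat replicates 1 or 3 (0.0799 and 0.0735). Cenpa was not called without HDAC9 knockout replicate 3 (0.116) or high-fat replicates 1, 2 or 3 (0.0915, 0.112 and 0.0837), or in a fit of the 2 groups alone (0.091).

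Against the HDAC6 knockout, the high-fat group had 38 higher and 6 lower means, where 47.9% of all genes were lower, a median of 0.15, against 0.0068, and no called gene, where 0.145% of all genes were called. Ccne2 came closest, at 0.56 (SE 0.108, limma adjusted p = 0.0563), followed by Mcm5 at 0.73 (adjusted p = 0.155). Between these groups 7 genes were higher at an unadjusted p under 0.05 and 0 lower, against 3.58% and 3.69% of all genes, and 9 were higher without overlap, against 6.6%. Between the 2 knockouts limma called no gene of the set, where 0.00807% of all genes were called, and at an unadjusted p under 0.05 the HDAC9 knockout was lower for 5 genes and higher for 0, against 2.02% and 1.78%. The HDAC9 knockout had 30 lower means, where 50.3% of all genes were lower, and a median of -0.081, with Cenpk at -0.61 (adjusted p = 0.626), Aurka at -0.40 and Cenpa at -0.49, and 6 genes were lower without overlap, against 4.71%. In the test of any difference among the 4 groups, Ccne2 (limma adjusted p = 0.0373) and Cenpk (0.0286) passed, 2 of 44 genes, where 0.331% of all genes did.

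Other genes of the cell cycle, taken from lists separate from the set, had a lower median in the knockouts than in chow, and none of the replication or mitosis genes was called by limma. Of 37 measured genes of replication origins and forks, 26 had a lower mean than chow in the HDAC6 knockout, 32 in the HDAC9 knockout and 14 on the high-fat diet, against 54.4%, 54% and 52.8% of all genes, with medians of -0.051, -0.18 and 0.027. At an unadjusted p under 0.05, 2, 3 and 2 of them were lower, or 5.41%, 8.11% and 5.41%, against 3.03%, 3.6% and 4.35% of all genes. Of 48 other mitosis genes, 39, 41 and 30 had a lower mean, against the same shares of all genes, with medians of -0.15, -0.155 and -0.041. At an unadjusted p under 0.05, 8, 11 and 1 of the mitosis genes were lower, or 16.7%, 22.9% and 2.08%, the last under the share of all genes. The spindle checkpoint gene Mad2l1 read 5.65, 5.50 and 5.40 on the HDAC9 knockout arrays and 6.03, 6.35 and 5.799 in chow livers, without overlap (-0.55, limma adjusted p = 0.375). Shcbp1, a cytokinesis gene near background, differed by -0.57 in the HDAC9 knockout (adjusted p = 0.243). The replication initiation gene Mcm10 read 8.13, 8.11 and 8.76 on the high-fat arrays and 7.61, 7.99 and 7.46 on the chow arrays, without overlap (0.64, adjusted p = 0.259).

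Of 30 measured G1 regulators, inhibitors of cyclin-dependent kinases and RB/E2F genes, 20 had a lower mean than chow in the HDAC6 knockout, 19 in the HDAC9 knockout and 16 on the high-fat diet, or 66.7%, 63.3% and 53.3% against 54.4%, 54% and 52.8% of all genes. Of these 30 genes 1, Myc, was called, on the high-fat diet against chow, where 0.29% of all genes were called. The growth-promoting transcription factor Myc read 4.85, 4.92 and 4.90 on the high-fat arrays and 5.97, 5.62 and 5.42 on the chow arrays. Myc fell on the high-fat diet by 0.77 on the log2 scale (SE 0.1495, 1.71-fold, limma adjusted p = 0.0499), near background. This call lay at the threshold and was lost in 14 of 24 alternatives (adjusted p from 0.0309 to 0.2), among them the removal of any array except HDAC6 knockout replicate 2 and chow replicate 3. E2f8, an atypical E2F that represses E2F targets and acts in hepatocyte polyploidy, read 6.90, 7.18 and 7.11 on the chow arrays and 5.51, 6.58 and 5.07 on the high-fat arrays, with log2 fold changes of -1.34 on the high-fat diet (adjusted p = 0.134), -1.12 in the HDAC6 knockout (0.662) and -0.64 in the HDAC9 knockout (0.826). Of 18 measured p53 target and growth arrest genes, 14, 10 and 11 had a higher mean than chow in the HDAC6 knockout, the HDAC9 knockout and the high-fat group, and 4, 8 and 7 a lower mean, or 22.2%, 44.4% and 38.9% against 54.4%, 54% and 52.8% of all genes. None was called by limma, and 3 were higher at an unadjusted p under 0.05 in each group, or 16.7%, against 2.74%, 2.49% and 4.13% of all genes. Among them Gas6 differed by 1.12 in the HDAC9 knockout (adjusted p = 0.177), Btg2 by 0.90 on the high-fat diet (0.155) and Trp53inp1 by 0.44 in the HDAC6 knockout (0.499).

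Promoters of the set shared sequence features that the choice of genes did not use. RefSeq windows on GRCm38.p6, from 250 bases before to 50 bases after a transcription start, were found for 36 of the 45 genes (41 windows). The CCAAT box, bound by NF-Y, was searched as CCAAT on both strands and found in 30 genes (83.3%) and 85.4% of their windows, against 37.4% of all 32851 windows. The cell cycle homology region, bound by DREAM and B-MYB complexes, was searched on both strands as TTTGAA and, alternatively, as TTTAAA, and found in 25 genes (69.4%) and 65.9% of windows, against 27.6%. The E2F element, searched in the spelling TTCCCGC, in the variant TTCGCGC, in the variant TTGCCGC and in the variant TTGGCGC, was found in 12 genes (33.3%) and 34.1% of windows, against 9.57%. These matches describe the letters in the windows and no binding.

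The 250 bases before the start of Cenpa and before the first of 3 annotated starts of Cenpk, the centromere genes with called differences, are shown 5′ to 3′ on the plus strand, with the motif matches in capitals.
Cenpa, chr5:30666636-30666885: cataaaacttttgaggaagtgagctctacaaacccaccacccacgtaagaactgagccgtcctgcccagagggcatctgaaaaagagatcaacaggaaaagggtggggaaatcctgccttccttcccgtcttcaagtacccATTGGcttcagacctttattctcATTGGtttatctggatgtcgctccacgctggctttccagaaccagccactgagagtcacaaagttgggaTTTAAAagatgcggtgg
Cenpk, chr13:104228361-104228610: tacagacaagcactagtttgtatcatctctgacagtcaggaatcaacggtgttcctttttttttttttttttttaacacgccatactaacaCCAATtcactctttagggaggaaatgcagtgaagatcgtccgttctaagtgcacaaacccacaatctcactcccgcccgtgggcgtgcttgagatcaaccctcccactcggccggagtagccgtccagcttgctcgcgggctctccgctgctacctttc
The Cenpa window holds the CCAAT box on the minus strand, read as ATTGG, at bases -109 to -105 and -86 to -82 from the start, and TTTAAA, a palindrome, at -17 to -12. After the start, outside the bases shown, it also holds TTTGAA at 17 to 22. The Cenpk window holds CCAAT at -159 to -155. Before the second Cenpk start, CCAAT lies on the minus strand at -65 to -61 and on the plus strand at -40 to -36, and before the third start CCAAT lies at -238 to -234 and TTCCCGC at -18 to -12.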

How the data were processed

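The values analysed are log2 expression per probe set as deposited by the authors. They were made with RMA (robust multi-array average, which corrects background, normalizes arrays together and sums the probes of a set), per the submitters' processing notes. Which software and chip definition they used is not given in the sources used here. RMA draws the values of weakly expressed genes together, so fold changes near background can be understated. Whether they were understated here was not tested. No further normalization was applied, and every column of sample values was used.

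Of 22626 probe sets, 20380 had 1 gene symbol in a public annotation table, 691 several and 1555 none, and genes were read on the probe sets with 1 symbol. The 4 groups were fitted over all 12 arrays in R 4.3.3 with limma 3.58.1 (4 group means, eBayes with a mean-variance trend, two-sided), with Benjamini-Hochberg adjustment over 12393 genes and a threshold of 0.05. The fit was tested on simulated data first. Figures were drawn with Python 3.11.15 and matplotlib 3.10.9.

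The members, gene lists and tests were chosen with earlier results of these data known. Values on every array are given for members called in any comparison or in the F test, for the 8 of smallest p in each chow comparison, for the 5 of highest mean and for members whose probe sets disagreed. Of each further pathway list the genes were taken from the 3 of smallest p, and any called gene. Alternatives were the variance prior, the samples fitted, normalization, filters on low expression, the choice of probe sets, the threshold, a block on the replicate number, and arrays left out one at a time. The counts of lower means with an array left out, and the alternatives for Myc, were added after seeing the data.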

Additional observations from a re-analysis of the deposited data

How the results depend on the processing

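The counts of called cell cycle genes stayed at 0 for the HDAC6 knockout and the high-fat diet against chow and for the HDAC9 against the HDAC6 knockout under all alternatives run, while the other counts moved. For the HDAC9 knockout against chow the count of 1 became 0 without the trend, with only the 2 groups compared, after quantile normalization, with a filter at the 25th or at the 50th percentile of mean expression and with every probe set tested on its own. It became 2 at an adjusted p under 0.1 (Cenpk and Cenpa). For the high-fat group against the HDAC9 knockout the count of 3 became 0 with the 50th percentile filter, which removes these genes, and 6 at an adjusted p under 0.1. Against the HDAC6 knockout it became 1 (Ccne2) with a robust prior and at an adjusted p under 0.1. The count for any difference among the 4 groups, 2, became 1 without the trend, 1 with the 25th percentile filter and 0 with the 50th. The median log2 fold change of the HDAC9 knockout against chow moved to -0.4424 with either filter and to -0.4174 without the genes near background, and that of the high-fat group against the HDAC9 knockout to 0.3447 with the 25th percentile filter. Of 648 alternative values of named genes, 623 kept their side of the threshold, 23 lost a call and 2 gained a call. Most named genes were not called in the full fit, so most of the 623 stayed uncalled, and only called genes could lose a call. Direction turned in 0, but many alternatives leave the fold change itself unchanged, so there it could not turn.

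With each array left out in turn, the counts ran from 0 to 1 for the HDAC9 knockout against chow, 0 to 1 for the high-fat group against the HDAC6 knockout, 0 to 4 against the HDAC9 knockout and 0 to 2 among the 4 groups. The medians ran from -0.2708 to -0.1244 for the HDAC6 knockout, -0.37 to -0.2151 for the HDAC9 knockout and -0.1238 to 0.032 for the high-fat diet against chow, -0.1198 to -0.0095 between the knockouts, and 0.0905 to 0.1897 and 0.1553 to 0.2445 for the high-fat group against the HDAC6 and HDAC9 knockouts. The cause of these moves was not tested, beyond the fewer genes or samples that a filter or a removal leaves.

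Replicate numbers did not pair the samples: over 18 same-number pairs the deviations from the group means correlated at -0.15 to 0.15, with 4 over 0.1, and other pairs at -0.24 to 0.24. With the replicate number as a block, 2 genes were called in the HDAC9 knockout against chow, Cenpk and Stmn1 (adjusted p = 0.0224 for Stmn1). This count and those under the other settings above stand without the share of all genes called under the same setting. They are therefore not read as results about the set. The weak signal of the 28 genes near background and 3 arrays a group limit what these arrays can resolve.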
